A study of Homo sapiens with 22 samples.

Results

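The 10 genes described here are NFE2L2, which encodes the transcription factor NRF2, its relative NFE2L3, the NRF2 target genes NQO1, HMOX1, TXNRD1, GCLC and GCLM, and the alpha glutathione transferase genes GSTA1, GSTA2 and GSTA4. They were taken by gene symbol, and 12 of the 24526 probes on the array carry one of these symbols, with 2 probes each for NQO1 and TXNRD1 and 1 for each of the others. The genes were chosen by their HepG2 values, COP1 siRNA against control siRNA, in which NQO1 and the GSTA genes moved in opposite directions, so their HepG2 responses are given as a description with no test. RNA was measured on 22 Illumina HumanRef-8 v3 bead arrays in 3 human liver cancer cell lines, each transfected with siRNA at 15 nM for 48 h. COP1, a RING-type E3 ubiquitin ligase, was targeted on 3 Huh7, 4 HepG2 and 4 Hep3B arrays, and Negative Control siRNA was used on the same number of arrays in each line. The labels name 1 COP1 siRNA and no untransfected group, and each line is an established culture grown in DMEM/F-12 with serum.

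NRF2 is held low by KEAP1, an adaptor that hands it to a cullin ubiquitin ligase, and electrophiles or oxidants release it. It then pairs with small MAF proteins on antioxidant response elements and raises genes for quinone reduction, haem breakdown, thioredoxin and glutathione synthesis. Alpha glutathione transferases are abundant in hepatocytes, where they join glutathione to electrophilic products of metabolism. NFE2L3 is a related cap'n'collar factor that can bind the same kind of element.

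In each line the brightest COP1 siRNA array gave less signal for the targeted gene than the dimmest control array, with log2 fold changes of -2.40 ± 0.12 in Huh7, -1.78 ± 0.11 in HepG2 and -2.05 ± 0.11 in Hep3B (± SE, limma adjusted p = 3e-13, 4e-12 and 2.1e-12). Replicate 3 of the Huh7 COP1 siRNA group stood apart from the other arrays: its root mean square distance from the mean of its group was 0.42 on the log2 scale, against 0.12 to 0.27 elsewhere. Of 8 hepatocyte and liver cancer marker genes, 8 were above background on all Huh7 arrays, 7 on all HepG2 arrays and 2 on all arrays labelled Hep3B. ALB was above background on 0 of the 8 arrays labelled Hep3B, where its intensity was -14.1 to 8.47, and AFP was at 62.8 to 156.8 there, so the defining hepatocyte marker ALB was not detected in these cells. AFP and SERPINA1 were the markers above background on all 8 of these arrays. SERPINA1 was at 54.8 to 89.0 there, against 1344 to 2163 in Huh7 and 21060 to 27200 in HepG2. These values go against hepatocyte-like expression, but cannot settle whether the cells are hepatocyte-derived. The identity of these cells could not be checked further, and Hep3B below means the arrays so labelled. Whether the arrays of a group came from separate cultures is not in the labels, so the spread behind each p-value may be technical.

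Levels are given as the deposited intensity of a probe on a linear scale, background-subtracted and quantile-normalized by the authors, so that values below 0 occur. A probe was taken as above background on an array where its intensity passed 21.8, the 0.98 quantile of the size of the values below 0. A probe's intensity cannot be set against that of another probe, and a lower signal cannot be told apart from fewer expressing cells. Log2 fold changes were fitted on log2 (normexp intensity with an offset of 50) in 1 limma model of all 22 arrays, which understates the change of dim probes, and a gene was called at an adjusted p under 0.05 over the 13870 features tested. For each gene the brighter probe entered this fit.

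After COP1 siRNA, NQO1 fell in Huh7 and was lower in HepG2, NFE2L3 rose in Huh7 and Hep3B and was higher in HepG2, HMOX1 rose in Huh7, and GSTA1 and GSTA2 were higher in HepG2. In Huh7, 5 of the 10 genes rose, 1 fell and 4 were not called, while 32.2% of all features were called in that line (17.0% higher and 15.2% lower). Without replicate 3 of the COP1 siRNA group, 8 were called, 6 higher and 2 lower, where 28.9% of all features were called (14.7% higher and 14.2% lower), and the 6 include GSTA1, which was above background on no Huh7 array. In Hep3B, 1 rose, 1 fell and 8 were not called, where 16.3% of all features were called (8.44% higher and 7.88% lower). Of those 8, 4 were above background on no Hep3B array: NQO1, GCLC, GSTA1 and GSTA2. Their response could not be measured there, and they still enter the Hep3B median below. In Huh7 the same held for GCLC and GSTA1. In HepG2 the COP1 siRNA and control arrays did not overlap for 6 genes, 3 higher and 3 lower, where 25.0% of all features did not overlap (12.8% higher and 12.3% lower). Over Huh7, HepG2 and Hep3B the 10 genes had median log2 fold changes of 0.39, 0.18 and -0.06, beside 0.01, 0.02 and -0.01 for all features.

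**Figure D1:**
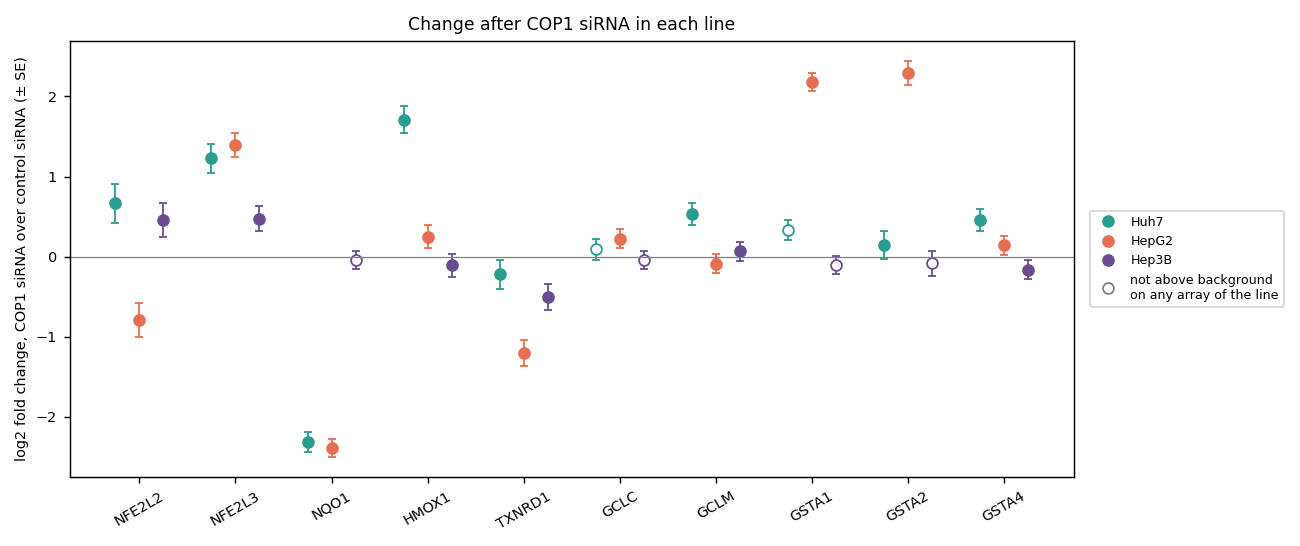
Log2 fold change (COP1 siRNA over control siRNA, ± SE, from the fit to all 22 arrays) of the 10 genes in Huh7 (3 arrays per siRNA), HepG2 and Hep3B (4 per siRNA). Open circles mark genes above background on no array of that line, such as NQO1 in Hep3B. NQO1 lies at -2.32 in Huh7 and -2.39 in HepG2, while GSTA1 and GSTA2 lie at 2.18 and 2.30 in HepG2.

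Among the transcription factors, NFE2L3 was higher on all COP1 siRNA arrays of each line. In Huh7 its intensity was 1106, 1306 and 2163 with COP1 siRNA, against 680, 625 and 461 with control siRNA. The groups did not overlap, and replicate 3, the array that deviated most in general, was the highest. The log2 fold change was 1.23 ± 0.18 (SE, n = 3 arrays each, limma adjusted p = 9e-06), and 0.96 without that array (limma adjusted p = 1.2e-05). The call held with Huh7 fitted alone, at a larger limma adjusted p of 0.023. In Hep3B the intensities were 2376, 2395, 2444 and 1993 with COP1 siRNA, against 1451, 1444, 1870 and 1804 with control siRNA. All 4 COP1 siRNA arrays lay above the controls, and the log2 fold change was 0.47 ± 0.16 (SE, n = 4 arrays each, limma adjusted p = 0.036). That call was lost when any of 3 COP1 siRNA arrays or 2 control arrays of Hep3B was left out, and adjusted p ranged from 0.00016 to 0.12 over the alternatives. HepG2 showed 1319, 1347, 1331 and 1610 with COP1 siRNA, against 399, 489, 509 and 556 with control siRNA, a log2 fold change of 1.39 ± 0.16 that was not tested.

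NFE2L2, the gene for NRF2 itself, was detected on all 22 arrays and did not move one way in the 3 lines. In HepG2 its intensity was 1094, 723, 1092 and 915 with COP1 siRNA, against 1753, 1868, 1269 and 1953 with control siRNA. The COP1 siRNA arrays were all lower there, with a log2 fold change of -0.79 ± 0.21 (SE, n = 4 each, not tested). In Hep3B it was 1752, 1194, 1234 and 1374, against 835, 894, 1173 and 1056 with control siRNA. All COP1 siRNA arrays were higher there, but the log2 fold change of 0.46 ± 0.21 did not pass in the fit to all lines (limma adjusted p = 0.16), and it passed with Hep3B fitted alone (limma adjusted p = 0.0092). In Huh7 it was 2284, 2882 and 6140 with COP1 siRNA, against 2243, 2565 and 1695 with control siRNA. These groups overlapped, and the call in Huh7 (log2 fold change 0.67 ± 0.24, limma adjusted p = 0.039) rested on replicate 3, without which the value was 0.26 (limma adjusted p = 0.34).

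**Figure D2:**
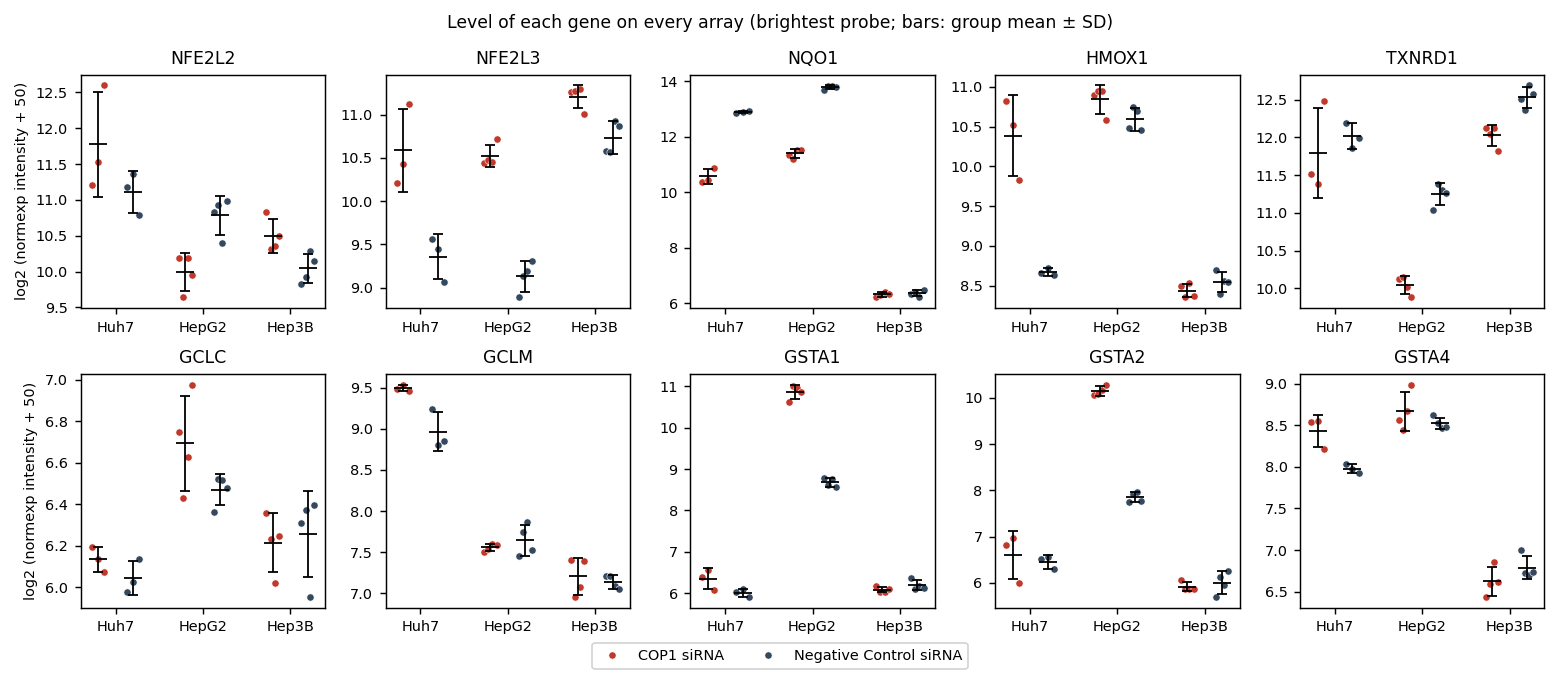
Level of each of the 10 genes on every array, as log2 of the normexp intensity with an offset of 50, by line, with COP1 siRNA arrays left of control arrays. Points are arrays (3 per group in Huh7, 4 in HepG2 and Hep3B), and horizontal marks with bars are group means ± SD. Each panel has its own vertical axis, which does not start at 0. NQO1 in Hep3B and GSTA1 in Huh7 and Hep3B lie at background.

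NQO1, a quinone reductase that is widely used as a readout of NRF2 activity, had the lowest log2 fold change of the 10 genes in both lines that expressed it. In Huh7 its intensity was 1250, 1319 and 1810 with COP1 siRNA, against 7252, 7478 and 7691 with control siRNA. The groups were far apart, the fold being 0.201 (log2 fold change -2.32 ± 0.13, SE, n = 3 each, limma adjusted p = 6.5e-13), and the call held with Huh7 fitted alone (limma adjusted p = 0.00067). HepG2 had 2535, 2278, 2840 and 2861 with COP1 siRNA, against 13064, 14323, 14589 and 14229 with control siRNA, a log2 fold change of -2.39 ± 0.11 (SE, n = 4 each, not tested). The brightest HepG2 array with COP1 siRNA thus stayed below the dimmest Huh7 control array. On the 8 Hep3B arrays NQO1 was between -1.03 and 9.5 with COP1 siRNA and between -1.03 and 13.1 with control siRNA, below background throughout, so no change could be measured in that line.

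The second NQO1 probe, ILMN_2354953, was dimmer. In Huh7 it stood at 3.69, 11.5 and 20.5 with COP1 siRNA, against 46.9, 74.0 and 55.3 with control siRNA. No COP1 siRNA array passed background, so this probe was at least 1.38-fold lower (fitted log2 fold change -0.62 ± 0.14, limma adjusted p = 0.0011). HepG2 gave 43.9, 36.6, 23.5 and 41.0 with COP1 siRNA, against 245, 375, 291 and 344 with control siRNA, a log2 fold change of -1.79 ± 0.12 that was not tested. Both probes were thus lower in Huh7 and HepG2, and both were at background in Hep3B.

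HMOX1, the inducible haem oxygenase, did the opposite of NQO1 in Huh7. It had intensities of 1727, 1388 and 834 with COP1 siRNA, against 331, 349 and 321 with control siRNA. Every COP1 siRNA array was higher, replicate 3 the least so, and the log2 fold change was 1.71 ± 0.17 (SE, n = 3 each, limma adjusted p = 1.9e-08). This call held with Huh7 fitted alone, at a larger limma adjusted p of 0.0056. HepG2, where HMOX1 was already high, had 1824, 1904, 1901 and 1452 with COP1 siRNA, against 1355, 1638, 1582 and 1329 with control siRNA. Those groups overlapped, with a log2 fold change of 0.25 ± 0.14 (SE, n = 4 each, not tested). In Hep3B the intensities were 285, 254, 294 and 255 with COP1 siRNA, against 339, 261, 303 and 300 with control siRNA, again overlapping (log2 fold change -0.11 ± 0.14, limma adjusted p = 0.72).

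TXNRD1, the cytosolic thioredoxin reductase, was lower on all COP1 siRNA arrays of HepG2 and Hep3B. In Hep3B its brighter probe stood at 4378, 4163, 4382 and 3544 with COP1 siRNA, against 5755, 5175, 6546 and 6021 with control siRNA. The groups did not overlap, and the log2 fold change was -0.51 ± 0.16 (SE, n = 4 each, limma adjusted p = 0.032). Over the alternatives its adjusted p ranged from 0.00018 to 0.1, and the call was lost on leaving out COP1 siRNA replicate 1, 2 or 4 or control replicate 1, 3 or 4. The second probe, ILMN_2324421, gave -0.60 ± 0.21 (limma adjusted p = 0.047 over probes). In HepG2 the brighter probe stood at 1035, 1057, 959 and 867 with COP1 siRNA, against 2033, 2589, 2460 and 2380 with control siRNA, a log2 fold change of -1.21 ± 0.16, and the second probe gave -1.39 ± 0.21, neither tested. Huh7 had 2851, 2596 and 5643 with COP1 siRNA, against 4618, 3632 and 4014 with control siRNA. There replicates 1 and 2 lay below the controls and replicate 3 above them, so the log2 fold change was -0.22 ± 0.19 (limma adjusted p = 0.39), and -0.57 without replicate 3 (limma adjusted p = 0.0019).

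**Figure D3:**
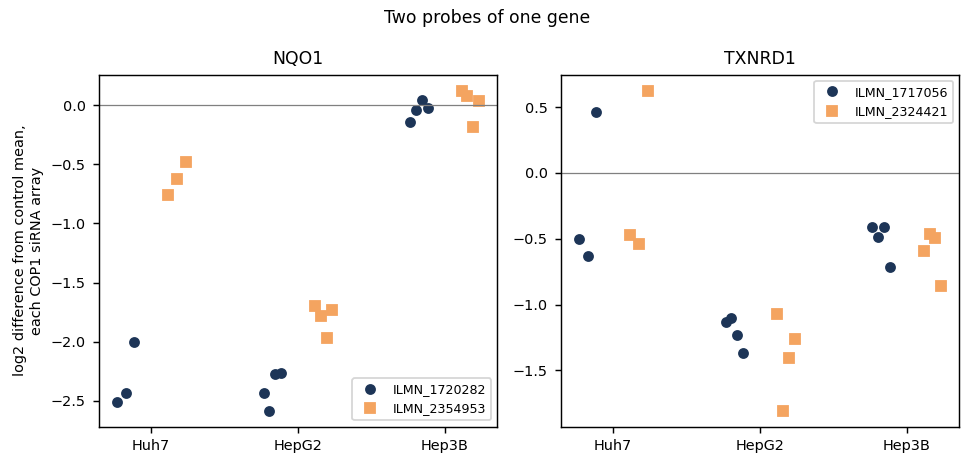
Difference of each COP1 siRNA array from the mean of the control arrays of its line, on the log2 scale, for the 2 probes of NQO1 (left) and of TXNRD1 (right). Each point is an array (3 in Huh7, 4 in HepG2 and Hep3B), circles are the brighter probe and squares the second, and the vertical axes differ. Both TXNRD1 probes put Huh7 replicate 3 above 0 and the other Huh7 arrays below it. The second NQO1 probe was above background on no Huh7 array with COP1 siRNA, so its difference there is only a bound.

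Glutathione synthesis starts with glutamate-cysteine ligase, whose catalytic subunit is GCLC and whose modifier subunit is GCLM. GCLM had intensities of 640, 666 and 630 with COP1 siRNA in Huh7, against 529, 373 and 385 with control siRNA. The arrays did not overlap, and the log2 fold change was 0.53 ± 0.14 (SE, n = 3 each, limma adjusted p = 0.0044), but the call was lost with Huh7 fitted alone (limma adjusted p = 0.088) and without background correction (limma adjusted p = 0.051). It was not called in Hep3B (log2 fold change 0.07 ± 0.12, limma adjusted p = 0.8), and in HepG2 its arrays overlapped, from 107 to 118 with COP1 siRNA and from 100 to 158 with control siRNA (log2 fold change -0.09 ± 0.12, not tested). GCLC was at or near background in all lines. Its probe passed background on 3 of 22 arrays, all of them HepG2 with COP1 siRNA, where it stood at 32.2, 10.8, 23.5 and 50.6, against 7.15, 16.8, 16.3 and 13.9 with control siRNA. Those groups overlapped, and no response of GCLC could be measured in Huh7 or Hep3B.

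GSTA1 and GSTA2, the main alpha transferases of liver, were above background in HepG2 with either siRNA and higher there with COP1 siRNA. GSTA1 had intensities of 1504, 1973, 1917 and 1784 with COP1 siRNA in HepG2, against 364, 314, 360 and 303 with control siRNA, a log2 fold change of 2.18 ± 0.11 (SE, n = 4 each, not tested). GSTA2 had 987, 1019, 1082 and 1169 with COP1 siRNA, against 139, 169, 174 and 145 with control siRNA, a log2 fold change of 2.30 ± 0.15 (SE, n = 4 each, not tested). In both genes the dimmest COP1 siRNA array was over the brightest control array. In Huh7, GSTA1 was above background on no array (9.52, 19.5 and -7.87 with COP1 siRNA, against -9.35, -6.68 and -15.1 with control siRNA), and GSTA2 on 2 of 3 COP1 siRNA arrays (37.9, 50.2 and -10.9) and on no control array (16.2, 18.9 and 3.09). Neither was called (limma adjusted p = 0.053 for GSTA1 and 0.57 for GSTA2), and without replicate 3, the COP1 siRNA array at which both were lowest, both were (fitted log2 fold change 0.47 with limma adjusted p = 0.006 for GSTA1, and 0.44 with limma adjusted p = 0.017 for GSTA2). In Hep3B both were below background on all 8 arrays.

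GSTA4, whose enzyme favours hydroxynonenal, a product of lipid peroxidation, had a pattern of its own. In Huh7 it had 296, 299 and 221 with COP1 siRNA, against 186, 176 and 167 with control siRNA. All COP1 siRNA arrays were higher and the log2 fold change was 0.46 ± 0.14 (SE, n = 3 each, limma adjusted p = 0.013), a call lost with Huh7 fitted alone (limma adjusted p = 0.12), without background correction (limma adjusted p = 0.16) and without COP1 siRNA replicate 2 (limma adjusted p = 0.051). HepG2 had 304, 271, 333 and 431 with COP1 siRNA, against 317, 292, 278 and 283 with control siRNA, overlapping groups in which only 1 array stood out (log2 fold change 0.14 ± 0.12, not tested). In Hep3B it was near background, at 11.4, 21.2, 41.2 and 23.0 with COP1 siRNA and 52.5, 30.6, 29.0 and 31.3 with control siRNA (log2 fold change -0.16 ± 0.12, limma adjusted p = 0.43).

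The promoters of GSTA1 and GSTA2 are shown because both genes moved together in HepG2 and share nearly all of this sequence. Promoter sequences came from RefSeq on GRCh38.p14, with 250 bases before and 50 after the transcription start, and 9 of the 10 genes had an entry. On chromosome 6, minus strand, the GSTA1 window is chr6:52803767-52804066 and the GSTA2 window is chr6:52763426-52763725. They were identical at 288 of 300 positions (96%) compared without gaps, and capitals mark the 12 that differ:
GSTA1: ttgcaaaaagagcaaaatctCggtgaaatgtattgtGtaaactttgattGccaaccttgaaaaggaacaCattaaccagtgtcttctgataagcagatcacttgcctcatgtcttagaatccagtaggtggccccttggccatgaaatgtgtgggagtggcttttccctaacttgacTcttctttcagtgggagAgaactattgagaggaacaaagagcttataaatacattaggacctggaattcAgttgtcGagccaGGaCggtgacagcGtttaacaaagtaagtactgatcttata
GSTA2: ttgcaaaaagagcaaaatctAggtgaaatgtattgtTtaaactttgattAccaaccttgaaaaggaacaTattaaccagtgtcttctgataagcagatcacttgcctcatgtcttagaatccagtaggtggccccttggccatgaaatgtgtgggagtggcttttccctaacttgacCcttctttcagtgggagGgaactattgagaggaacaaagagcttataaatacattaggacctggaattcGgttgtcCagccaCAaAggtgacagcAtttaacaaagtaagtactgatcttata
Of the 12 differing positions, 6 lie before the transcription start by more than 50 bases and the others around it. Over the aligned positions of a global alignment with gaps, the GSTA1 window was 53.2% identical to that of GSTA4. By the same method it was 52.4% identical to that of GCLC and 51.3% to that of NQO1. Because GSTA1 and GSTA2 are near-identical paralogs and the probe sequences were not used here, signal shared between their probes was not tested.

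The core of the antioxidant response element, TGACNNNGC, was searched on both strands of the 300-base windows. It was found in 13.3% of 35116 promoters and in 4 of the 11 promoters of these genes, namely those of GCLM and GSTA4 and both of TXNRD1. The matches are shown with 12 bases on either side, capitals marking the match on either strand, and position -1 is the base before the transcription start:
GCLM, position -34, chr1:93909444-93909476, - strand: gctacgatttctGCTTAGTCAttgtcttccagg
GSTA4, position -9, chr6:52995273-52995305, - strand: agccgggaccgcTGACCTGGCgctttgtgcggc
TXNRD1 promoter 1, position -99, chr12:104215668-104215700, + strand: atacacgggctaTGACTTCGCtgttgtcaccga
TXNRD1 promoter 1, position -8, chr12:104215759-104215791, + strand: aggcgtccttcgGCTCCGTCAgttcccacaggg
TXNRD1 promoter 2, position -102, chr12:104286918-104286950, + strand: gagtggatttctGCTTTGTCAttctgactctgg
GCLM and GSTA4 were called higher in Huh7, where TXNRD1 was not called. TXNRD1 was lower in HepG2 and Hep3B, where the arrays of GCLM and GSTA4 overlapped. Whether the element had a part in these responses was not tested. The windows of NQO1, GSTA1 and GSTA2 held no match, and HMOX1 had no promoter entry. Sequence outside the 300-base windows was not searched, so a missing match does not mean that a gene lacks the element. The AP-1 element TGANTCA occurred in 7.71% of promoters and in 0 of the 11. The TATA box TATAAA occurred in 11.5% of promoters and in 3 of the 11, at position -30 in GSTA1 and GSTA2 and -29 in GCLC.

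Under control siRNA alone, Hep3B was tested against Huh7, the pair of lines that the choice of genes did not use. Of the 10 genes, 2 were called higher and 5 lower in Hep3B, where 65.0% of all features were called (34.0% higher and 31.0% lower). Of these calls, GSTA2 rests on intensities below background in both lines. The HepG2 control arrays entered the choice of genes, so their differences from the other lines are given with no test.

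NQO1 was brightest in HepG2 controls, at a mean intensity of 14051 ± 675 (SD, n = 4), against 7474 ± 220 in Huh7 controls (SD, n = 3), a log2 difference of 0.90 ± 0.12 (SE, not tested). In Hep3B controls it was at least 77.8-fold lower than in Huh7 (limma adjusted p = 1.3e-24). Such a bound is taken against the lowest signal that passed the background threshold on each array of the dim line. GSTA1 and GSTA2 were above background on every HepG2 control array and on no control array of the other two lines. HMOX1 averaged 1476 ± 157 in HepG2 (SD, n = 4), against 333 ± 13.9 in Huh7 (SD, n = 3), a log2 difference of 1.92 ± 0.16 (SE, not tested). In Hep3B it averaged 300.4 ± 31.9 (SD, n = 4), which overlapped Huh7 (log2 difference -0.13 ± 0.16, limma adjusted p = 0.5).

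Other members ran in another order. GCLM averaged 65.8 ± 8.23 in Hep3B and 126 ± 26.5 in HepG2 (SD, n = 4 each), against 429 ± 86.9 in Huh7 (SD, n = 3), with a log2 difference of -1.83 ± 0.13 for Hep3B against Huh7 (limma adjusted p = 1.8e-12). NFE2L3 and TXNRD1 had their highest control means in Hep3B. NFE2L3 lay 1.38 ± 0.17 over Huh7 on the log2 scale (limma adjusted p = 6e-08) and 1.61 ± 0.16 over HepG2 (not tested). TXNRD1 lay 0.52 ± 0.17 over Huh7 (limma adjusted p = 0.012), a call lost without Huh7 control replicate 2 (log2 difference 0.44, limma adjusted p = 0.062), and 1.29 ± 0.16 over HepG2 (not tested). NFE2L2 had its lowest control mean in Hep3B, with log2 differences of -1.07 ± 0.23 from Huh7 (limma adjusted p = 0.00021) and -0.74 ± 0.21 from HepG2 (not tested). The HepG2 and Huh7 control arrays overlapped in NFE2L2 (log2 difference -0.33 ± 0.23) and in NFE2L3 (-0.23 ± 0.17). GSTA4 averaged 35.9 ± 11.1 in Hep3B and 293 ± 17.5 in HepG2 (SD, n = 4 each), against 177 ± 9.38 in Huh7 (SD, n = 3), and Hep3B was lower than Huh7 (limma adjusted p = 8.6e-09).

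With all 6 groups put in order, the group means of NQO1 ran from HepG2 control through Huh7 control, HepG2 with COP1 siRNA and Huh7 with COP1 siRNA to the Hep3B groups, and of these neighbours only the Hep3B pair overlapped. For HMOX1, the Huh7 arrays with COP1 siRNA overlapped the HepG2 controls, and the Hep3B controls overlapped the Huh7 controls and Hep3B with COP1 siRNA. NFE2L3 in Huh7 with COP1 siRNA overlapped the Hep3B controls and HepG2 with COP1 siRNA. GSTA1 and GSTA2 had HepG2 with COP1 siRNA on top and HepG2 controls next, neither overlapping its neighbour.

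The response to COP1 siRNA was compared between Hep3B and Huh7 as an interaction in the same fit, leaving out HepG2, on which the genes had been chosen. Of the 10 genes, 1 was called with a higher and 3 with a lower response in Hep3B, where 14.7% of all features were called (7.12% higher and 7.58% lower). HMOX1 differed by -1.82 ± 0.22 on the log2 scale (Hep3B minus Huh7, SE, limma adjusted p = 2.3e-06), the response being -0.11 in Hep3B and 1.71 in Huh7. NFE2L3 differed by -0.76 ± 0.24 (limma adjusted p = 0.032), with 0.47 in Hep3B and 1.23 in Huh7, and by -0.49 without Huh7 replicate 3 (limma adjusted p = 0.078). GSTA4 differed by -0.62 ± 0.18 (limma adjusted p = 0.023), with -0.16 in Hep3B and 0.46 in Huh7, and its adjusted p ranged from 0.0021 to 0.064 over the alternatives. In Hep3B its signal was near background, above it on 2 of 4 COP1 siRNA arrays, so that response is poorly measured. Without background correction the GSTA4 difference was -1.28 (limma adjusted p = 0.051). The called difference for NQO1 is no measure of a response in Hep3B, where NQO1 lay below background with either siRNA.

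Beyond these 10 genes, 86 other genes of the pathway were listed, of which 68 could be tested. In Huh7, 10 rose and 16 fell (38.2%, against 32.2% of all features). With Huh7 fitted alone, 2 rose and 9 fell. HepG2 had 11 that rose and 7 that fell (26.5%, against 18.6% of all features, 9.06% higher and 9.52% lower). Hep3B had 0 that rose and 5 that fell (7.35%, against 16.3%). Without Huh7 COP1 siRNA replicate 3, the array that stood apart, the Hep3B count was 9, with 2 higher and 7 lower, where 24.0% of all features were called. In Huh7 itself, leaving that array out added higher calls for KEAP1, TXN, BLVRB, GSTM1, GSS, GGT1 and GLRX, and a lower call for AKR1C3. Lower calls for GSTO2, MGST2 and GSTCD and higher calls for GSK3B and GSTA5 were lost. Lower calls then no longer outnumbered higher ones in Huh7, where 28.9% of all features were called.

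Among 12 tested partners and regulators of NRF2, 2 were higher and 3 lower in Huh7, 2 higher and 0 lower in HepG2, and 0 were called in Hep3B. MAFF, a small MAF partner, rose in Huh7 by 0.49 ± 0.15 on the log2 scale (limma adjusted p = 0.011), while its second probe gave -0.25 (limma adjusted p = 0.31), and the call was lost without Huh7 control replicate 2 or 3. NFE2L1, another cap'n'collar gene, had a log2 fold change of -0.48 in Huh7 (limma adjusted p = 0.004) and of 0.54 in HepG2 (limma adjusted p = 0.00054). BTRC and FBXW11, the F-box proteins of a KEAP1-independent route of NRF2 turnover, were lower in Huh7, with log2 fold changes of -0.47 and -0.54 (limma adjusted p = 0.029 and 0.0022). The BTRC call was lost without COP1 siRNA replicate 2 or control replicate 1 or 3 of Huh7, with a highest adjusted p of 0.19 in limma and a value as small as -0.29. The other called genes of the list were DPP3, a KEAP1-binding peptidase, which rose by 0.44 ± 0.12 in HepG2 (limma adjusted p = 0.011), and GSK3B, a kinase of the same route as BTRC, which rose by 0.41 ± 0.14 in Huh7 (limma adjusted p = 0.028) and was named after its values were seen. The other DPP3 probes gave 0.54 (limma adjusted p = 0.0017) and 0.07 (limma adjusted p = 0.76) in HepG2, and the call was lost without COP1 siRNA replicate 2 (limma adjusted p = 0.058). The GSK3B call was lost without COP1 siRNA replicate 3 or control replicate 2 or 3 of Huh7, the lowest value being 0.21 (limma adjusted p = 0.24). KEAP1, also named after its values were seen, was called in no line, at 0.19, -0.14 and -0.29 in Huh7, HepG2 and Hep3B (limma adjusted p = 0.25, 0.43 and 0.066).

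Among 23 other NRF2 target genes, Huh7 had 4 higher and 3 lower, HepG2 2 higher and 5 lower, and Hep3B 0 higher and 2 lower. TALDO1, transaldolase of the pentose phosphate pathway, fell in all 3 lines, with log2 fold changes of -1.47, -1.59 and -1.35 in Huh7, HepG2 and Hep3B (limma adjusted p = 2.2e-08, 5.7e-10 and 2.1e-08). IDH1, the cytosolic isocitrate dehydrogenase that makes NADPH, also fell in all 3, with -1.03, -1.49 and -1.50 in the same order (limma adjusted p = 2e-05, 1.3e-08 and 1.9e-08). GPX2, a glutathione peroxidase, had a log2 fold change of -1.69 in Huh7 (limma adjusted p = 1.6e-05). AKR1B10, an aldo-keto reductase, rose by 1.32 ± 0.13 in Huh7 (limma adjusted p = 2.5e-08) and was lower in HepG2, at -0.57 (limma adjusted p = 0.00064). SLC48A1, a haem transporter, rose by 1.26 ± 0.15 in HepG2 (limma adjusted p = 4.7e-07).

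The 16 other glutathione transferases had 2 higher and 3 lower in Huh7, 6 higher and 1 lower in HepG2 and 0 higher and 1 lower in Hep3B. The higher Huh7 calls include GSTA5, which was above background on no Huh7 array. The list's median log2 fold change was -0.22 in Huh7 and 0.26 in HepG2. The negative sign in Huh7 rested on COP1 siRNA replicate 3, without which that median was slightly positive. GSTA5, another alpha family gene, stood at 80.8 to 122 with COP1 siRNA in HepG2, against at most 17.5 with control siRNA. The controls were below background, so it was at least 1.84-fold higher, though signal shared with GSTA1 or GSTA2 was not tested. GSTA5 passed the background filter only through the 4 HepG2 arrays with COP1 siRNA, where it was high. Its p-value is therefore not given, although the 6 higher HepG2 calls include it. The mu class genes GSTM1 and GSTM4 rose in HepG2 by 0.60 and 0.64 (limma adjusted p = 0.0012 and 0.0013), and a second GSTM4 probe gave 0.10 (limma adjusted p = 0.67). GSTT1, of the theta class, was lower in HepG2 and Hep3B, with log2 fold changes of -1.05 and -1.08 (limma adjusted p = 5.6e-06 and 6.1e-06). In Huh7, GSTO2 and the microsomal MGST2 had log2 fold changes of -0.78 and -0.99 (limma adjusted p = 0.0065 and 0.011), and both calls rested on COP1 siRNA replicate 3, without which the values were -0.35 and -0.39 (limma adjusted p = 0.059 and 0.1). GSTCD, a gene with a glutathione transferase-like domain, was at -0.45 in Huh7 (limma adjusted p = 0.017) and at -0.26 without that array (limma adjusted p = 0.14), and its other probes gave 0.34 and 0.43 (limma adjusted p = 0.055 and 0.047), so its direction was not settled. GSTM3 rose by 0.49 in Huh7 with overlapping arrays (limma adjusted p = 0.013), a call lost without control replicate 3 (log2 fold change 0.30, limma adjusted p = 0.14).

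Glutathione metabolism outside these enzymes held 12 tested genes, with 2 higher and 4 lower in Huh7, 1 higher and 1 lower in HepG2, and 0 higher and 2 lower in Hep3B. CBS, which opens the path from homocysteine to cysteine, fell in all 3 lines, with log2 fold changes of -1.97, -0.68 and -0.74 in Huh7, HepG2 and Hep3B (limma adjusted p = 2.2e-12, 1.7e-05 and 7e-06). CTH, the next enzyme of that path, was lower in Huh7, at -1.37, and higher in HepG2, at 0.39 (limma adjusted p = 8.7e-08 and 0.031). Its second probe gave -0.72 in Huh7 (limma adjusted p = 0.00012) and 0.20 in HepG2 (limma adjusted p = 0.24), and the HepG2 call was lost when any of 5 HepG2 arrays was left out. CHAC1, which degrades glutathione, was at least 1.54-fold lower in Huh7 (limma adjusted p = 8.1e-05), and the plasma peroxidase GPX3 rose by 0.79 there (limma adjusted p = 4.4e-05). GSS, glutathione synthetase, was at -0.34 in Hep3B (limma adjusted p = 0.041), a call lost when any of 6 Hep3B arrays was left out. Of 5 tested xenobiotic receptors and promoter factors, 3 fell in Huh7 and 0 were called in HepG2 or Hep3B. Those that fell were CEBPA at -2.26, CEBPB at -1.26 and RXRA at -0.87 (limma adjusted p = 6.2e-11, 6.7e-06 and 0.00028). CEBPA was above background on no Hep3B array, so no response could be measured in that line.

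**Figure D4:**
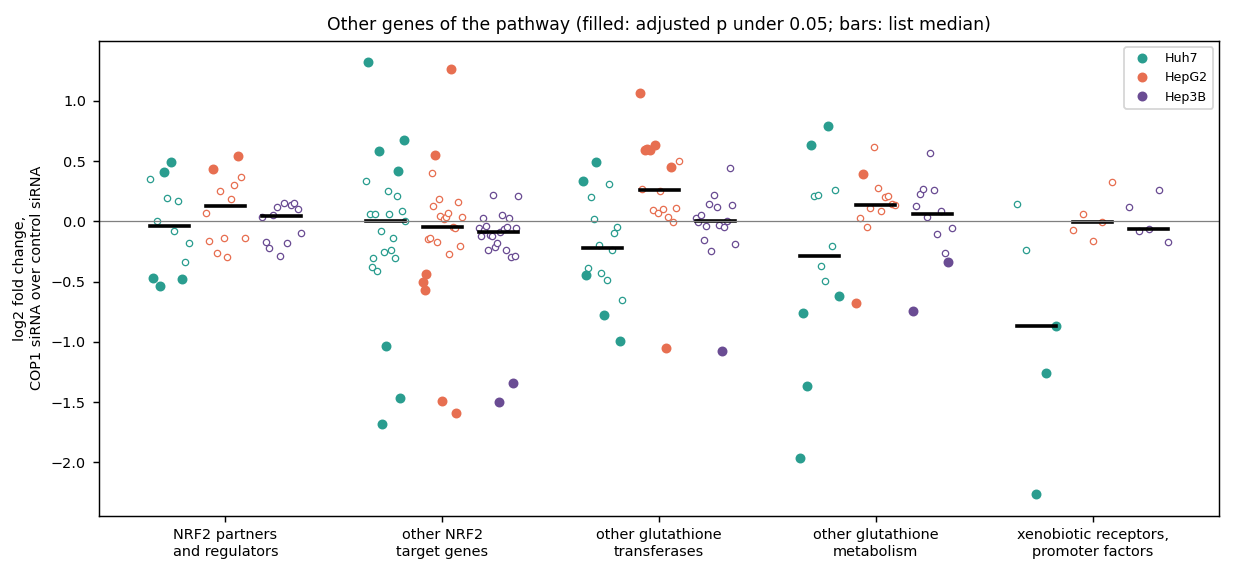
Log2 fold change (COP1 siRNA over control siRNA) of the 68 other tested pathway genes, by list and line, each point a gene. Filled points passed an adjusted p under 0.05 in limma over all 13870 features, open points did not, and black bars are list medians. The filled Hep3B points all lie below 0, and 6 filled HepG2 points of the other glutathione transferases lie above it.

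Across the 22 arrays, the named genes with levels most like NQO1 by Pearson correlation of log2 intensity were TRNP1 (r = 0.988), SH3PXD2A (0.987), GPER1 (0.985), ATP9A (0.985) and UGT2B7 (0.984). Those most like GSTA1 were ISM2 (0.99), SLC51A (0.988), LRRN4 (0.984), TNNC2 (0.984) and MRAP (0.982). These arrays share 3 cell lines, whose differences dominate such correlations, so the values are a description only. The COP1 siRNA arrays entered the correlations too, so fold changes like those of NQO1 or GSTA1 partly follow from the choice. All 5 genes like NQO1 had negative log2 fold changes in Huh7 and HepG2, from -2.07 for TRNP1 to -0.70 for UGT2B7 in Huh7. The 5 like GSTA1 lay between 0.81 for LRRN4 and 2.07 for SLC51A in HepG2 and between -0.22 and 0.16 in Huh7.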

How the data were processed

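Per the labels' protocols, total RNA was extracted with Trizol and amplified to biotin-labelled cRNA for Illumina bead arrays. The authors deposited 1 linear intensity per probe and array, made with GenomeStudio 2009.1 per the submitters' processing notes. From the values, 23.75% of deposited intensities are below 0 and all arrays share 1 distribution (medians 24.3 to 24.5), so they were background-subtracted and quantile-normalized; how is not given in the sources used here. The 44 per-sample columns of a second deposited table have names that match no sample label and were not used.

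Probes carry 1 gene symbol in 21834 cases, several in 0 and none in 2692, and 21813 matched a RefSeq gene identifier. Intensities were background-corrected (normexp, offset 50), log2-transformed and quantile-normalized in limma 3.58.1 (R 4.3.3). The 16563 probes above background (21.8) on at least 3 of 22 arrays gave 13870 features, each gene by its brightest probe, of which 12257 are named. The second probes of a gene were tested in a fit over all 16563 probes. The model had 6 group means, 16 residual and 9.41 prior degrees of freedom, and p-values were adjusted by Benjamini-Hochberg. Scripts were tested on simulated data. All pairs of arrays (231) shared at most 0.135% of values, so no array was counted as a repeat. The number of arrays limits the precision, at 3 or 4 per group.

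The 10 genes, the lists of other pathway genes and the marker lists were chosen with earlier results of these data known. Named from each list were up to 4 called genes per line with the largest absolute log2 fold change, and for NQO1 and GSTA1 the 5 named genes of highest correlation. Planned tests of HepG2 control arrays against the other lines are given as differences with no test, since the choice of genes used those arrays. Alternatives were another background correction, offset, normalization, filter, probe rule, weighting, threshold, replicate block and choice of samples.

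Of 3 leukocyte markers with a probe, 0, 1 and 0 were above background on all arrays of Huh7, HepG2 and Hep3B; of 3 endothelial markers, 1, 0 and 0; and of 3 fibroblast markers, 0, 1 and 1.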

Additional observations from a re-analysis of the deposited data

Results flagged for a closer look

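In 4 of 37 sets of values, each set being 1 probe in 1 group of 4 arrays, 1 array lay far from the others (chance marks about 1 set in 20). The sets share the same arrays, so they are not independent. NFE2L3 was at 1610 on replicate 4 of HepG2 with COP1 siRNA, where the others were at 1319 to 1347, and at 1993 on replicate 4 of Hep3B with COP1 siRNA, where the others were at 2376 to 2444. HMOX1 was at 1452 on the same HepG2 replicate 4, below 1824 to 1904 on the others. GSTA4 was at 52.5 on replicate 1 of Hep3B with control siRNA, above 29.0 to 31.3 on the others.

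The response to COP1 siRNA was marked as different between lines for 4 genes, 1 with no test and 3 by a test, and NQO1, called by the same test, was left out because it lay below background in Hep3B. NFE2L2 was lower on all HepG2 arrays and higher on all Hep3B arrays with COP1 siRNA, a difference of -1.25 on the log2 scale (HepG2 minus Hep3B) that was not tested. By limma's interaction, the Hep3B minus Huh7 difference was -0.76 for NFE2L3 (adjusted p = 0.032), -1.82 for HMOX1 (adjusted p = 2.3e-06) and -0.62 for GSTA4 (adjusted p = 0.023). Replicate 3 of Huh7 with COP1 siRNA stood apart from the other arrays, and without it these were -0.49 (adjusted p = 0.078), -2.10 (adjusted p = 1.5e-10) and -0.73 (adjusted p = 0.0038). GSTA4 was near background in Hep3B, so its response there is poorly measured.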

How the results depend on the processing

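No value of the 10 genes changed its sign among the called results. Of the values tested, 1185 stayed on their side of the threshold, 50 lost and 21 gained a call. Values that stayed uncalled could change sign: the NFE2L2 response difference of Hep3B minus Huh7 ranged from -0.50 to 0.20. The 10 HepG2 values, which had no test, moved by more than the spread in 5 cases and kept their direction: GCLC, near background, ranged from 0.13 to 0.87, NQO1 ranged from -2.43 to -2.09, GSTA1 from 2.14 to 2.42 and GSTA2 from 2.25 to 2.77.

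Among the 10 genes, the count called in Huh7 (6) was 3 without background correction and 3 with each line fitted alone. That in Hep3B (2) was 0 without background correction, 0 with an offset of 16, 0 at an adjusted p under 0.01, 1 with cyclic loess and 1 with the replicate number as a block. The count with a different response in Hep3B and Huh7 (4) was 2 without background correction, 2 with the replicate block, 2 at the stricter threshold and 7 with array quality weights. Leaving out 1 array at a time gave 0 to 3 in Hep3B and 2 to 5 for the response difference.

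Over all features, array quality weights gave 4341 called in Hep3B and 3075 for the response difference, against 2264 and 2038. An adjusted p under 0.01 left 2860, 1539 and 1283 in Huh7, HepG2 and Hep3B, and 1037 for the response difference. Fitted alone, Huh7 had 1302 and Hep3B 3922, with median residual SDs of 0.231 and 0.135. Of other pathway genes, 17 were called in Huh7 at the stricter threshold and 11 with Huh7 alone; Hep3B had 14 with weights, 11 alone and 4 to 9 leaving out 1 array. The causes of these changes were not tested.

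The replicate numbers do not pair the arrays: over 11 same-numbered pairs the correlation of deviations was -0.28 to 0.10, 1 over 0.1 and 1 highest with its own number, and the block's correlation was -0.114. GCLC in all lines, GSTA1 and GSTA2 in Huh7 and Hep3B, and NQO1 and GSTA4 in Hep3B were limited by signal over background.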
